A study of Mus musculus with 14 samples.

Results

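The splicing factors described here are the SR proteins, the proteins of the small nuclear ribonucleoproteins (snRNPs) and the heterogeneous nuclear ribonucleoproteins (hnRNPs). They were taken by gene symbol, as every symbol that begins with Srsf or Snrnp and a number, Snrp and a letter, Sf3a or Sf3b and a number, or Hnrnp, and that was listed at both oocyte stages. This gave 59 genes of the 16417 genes listed at both stages, and 1 symbol was left out as a pseudogene. By role they were 11 SR proteins, 8 proteins of the Sm core, 3 of the U1 snRNP, 11 of the U2 snRNP, 3 of the U4/U6.U5 tri-snRNP, 3 of the U11/U12 snRNPs and 20 hnRNPs. Of these, 57 passed the filter on low counts in every comparison. Srsf12 and Snrnp35 did not pass, and they had at most 0.213 CPM in any library.

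Introns are removed from nuclear pre-mRNA by the spliceosome, which is assembled anew on each intron from the U1, U2, U4, U5 and U6 snRNPs. The U1 snRNP recognises the 5′ splice site, the U2 snRNP binds the branch point, and the U4/U6.U5 tri-snRNP then joins to form the catalytic core. All of these snRNPs except U6 carry a ring of Sm proteins around their RNA. A rare class of introns is removed by a minor spliceosome with the U11 and U12 snRNPs in place of U1 and U2. SR proteins bind exons and help to recruit snRNPs, whereas hnRNPs coat pre-mRNA and often keep exons or splice sites from being used. A fully grown oocyte has largely stopped transcription, so that the mRNAs present during its maturation were mostly made and spliced earlier, during growth. Many of these stored mRNAs are translated or degraded when meiosis resumes.

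The study asked what the loss of CLPX does to mouse oocytes. CLPX unfolds proteins in the mitochondrial matrix and feeds them to the CLPP protease. CKO oocytes carried Clpxfl/fl and Zp3-Cre, a transgene whose zona pellucida promoter drives the recombinase in growing oocytes, and WT oocytes were Clpxfl/fl without the transgene, so that the floxed alleles were shared by every group. The titles of the ovulated WT libraries read Clpxfl/f, whereas their genotype field reads Clpxfl/fl. Ovulated oocytes, which have resumed meiosis, gave 3 CKO and 3 WT libraries, and germinal vesicle (GV) oocytes, which are still in prophase with an intact nucleus, gave 4 CKO and 4 WT libraries. The labels give no age, no number of oocytes or animals per library and no batch, so p-values measure the spread between these libraries. Libraries were made with SMART-Seq2, which primes reverse transcription at the poly(A) tail, and held total counts of 25086506 to 28471453. Values are counts per 1000000 (CPM) after TMM scaling, or the authors' FPKM where levels of different genes are set side by side. They are shares of a library primed at the poly(A) tail. A change of an mRNA per oocyte, of its tail length and of the remaining RNA therefore cannot be told apart.

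Clpx mRNA had 0.465, 0.575 and 0.269 CPM in ovulated CKO oocytes, against 19.1, 18.5 and 17.03 CPM in ovulated WT oocytes, and 0.676, 0.9403, 1.36 and 1.44 CPM in GV CKO oocytes, against 58.1, 39.6, 39.98 and 39.6 CPM in GV WT oocytes, and so was low in every CKO library. All 10 oocyte markers examined were listed, and their summed level was 8878 to 9065 CPM in ovulated CKO, 6977 to 11753 CPM in ovulated WT, 22510.2 to 51019 CPM in GV CKO and 25060.4 to 39924 CPM in GV WT libraries, so that it was lower in every ovulated library than in every GV library. Gdf9 had at least 4319.8 CPM in every library. Of 15 granulosa and cumulus markers 11 were listed, and their summed level was 64.9 to 107 CPM in ovulated CKO, 64.7 to 129 CPM in ovulated WT, 41.8 to 67.8 CPM in GV CKO and 53.98 to 67.4 CPM in GV WT libraries. Cyp19a1 made up most of it, with up to 105 CPM, and Fshr had at most 1.19 CPM. For 11 markers of theca, stroma, endothelium and blood, of which 7 were listed, the sums were 55.8 to 73.2, 44.4 to 101, 20.2 to 39.4 and 31.3 to 44.2 CPM in the same order of groups, nearly all of it from Pecam1. No listed marker was at 0 in all libraries. The part of these markers in the stage differences was not tested.

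Splicing factor mRNAs took up a larger share of the reads in ovulated than in GV oocytes. The 59 genes together held 0.681% to 0.782% of the counts in ovulated CKO, 0.678% to 0.977% in ovulated WT, 0.3304% to 0.442% in GV CKO and 0.349% to 0.3997% in GV WT libraries, so the ovulated libraries did not overlap with the GV libraries on this scale. After TMM scaling their summed CPM were 5000 to 6923 in ovulated CKO and 6565 to 7153 in ovulated WT libraries. They were 3835 to 5052 in GV CKO and 3265 to 4970 in GV WT libraries, so the stages overlapped in CKO and not in WT oocytes. Among the members the small Sm proteins led by FPKM. In ovulated WT oocytes the highest mean FPKM were those of Snrpg with 2103 ± 904 and Snrpe with 1982 ± 833 (SD, n = 3). Both encode subunits of the Sm ring. In GV WT oocytes Snrpe had 624 ± 167 and Snrpg 359 ± 53.6 FPKM (SD, n = 4). This lead depends on short gene lengths. Counts and FPKM imply 156 bases in GV and 174 in ovulated oocytes for Snrpg, and 249 and 269 for Snrpe. By mean CPM, Sf3b1 with 652 and Hnrnpc with 508 stood above Snrpe with 455 and Snrpg with 317 in ovulated WT oocytes. In GV WT oocytes Hnrnpk with 520 and Hnrnpc with 442 CPM stood above Snrpe with 174 and Snrpg with 61.0 CPM. The leading members of other families in GV WT oocytes were Snrnp27 with 553 ± 69.8 FPKM in ovulated WT and 192 ± 32.7 FPKM in GV WT oocytes, and Hnrnpk, an hnRNP that binds runs of C, with 203 ± 61.7 FPKM in ovulated WT and 183 ± 11.7 FPKM in GV WT oocytes. In ovulated WT oocytes Hnrnpc with 234 ± 46.1 and Hnrnpf with 214 ± 27.9 FPKM had higher means than Hnrnpk. Sf3b5, a small subunit of the SF3b complex, had 116 ± 84.1 FPKM in ovulated WT and 128 ± 10.9 FPKM in GV WT oocytes. Srsf3 had the highest mean of the SR proteins in all 4 groups, with 85.6 ± 37.1 FPKM in ovulated WT and 30.7 ± 5.37 FPKM in GV WT oocytes. Among the low members stood Hnrnpul1 with 1.77 ± 0.308 FPKM and Sf3a2 with 1.09 ± 1.13 FPKM in ovulated WT oocytes. At least 10 FPKM on average was reached by 44 members in ovulated CKO, 39 in ovulated WT, 34 in GV CKO and 37 in GV WT oocytes. Gene lengths behind the FPKM, as implied by counts and FPKM, differed between the tables of the stages by a ratio of 0.9803 to 1.204, so changes between stages are given in CPM. Since each stage has its own table, a stage change and a difference in processing between the tables cannot be told apart.

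The first comparison asked how these mRNAs differ between ovulated and GV oocytes of WT mice. Of the 57 members tested, 32 rose and 8 fell in ovulated WT oocytes (edgeR quasi-likelihood test, Benjamini-Hochberg adjusted p under 0.05 over 13158 genes). Among all genes tested, 29.7% rose and 34% fell. The median log2 fold change was 0.99 for the members and -0.08 for all genes tested. The roles differed in their counts: 15 of 20 hnRNPs and 6 of 10 SR proteins rose and none fell, whereas of 27 snRNP proteins 11 rose and 8 fell. With scaling by total counts the median of all genes lay higher by 0.34 on the log2 scale, and 36 members rose and 7 fell, beside 34% and 26.7% of all genes.

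**Figure D1:**
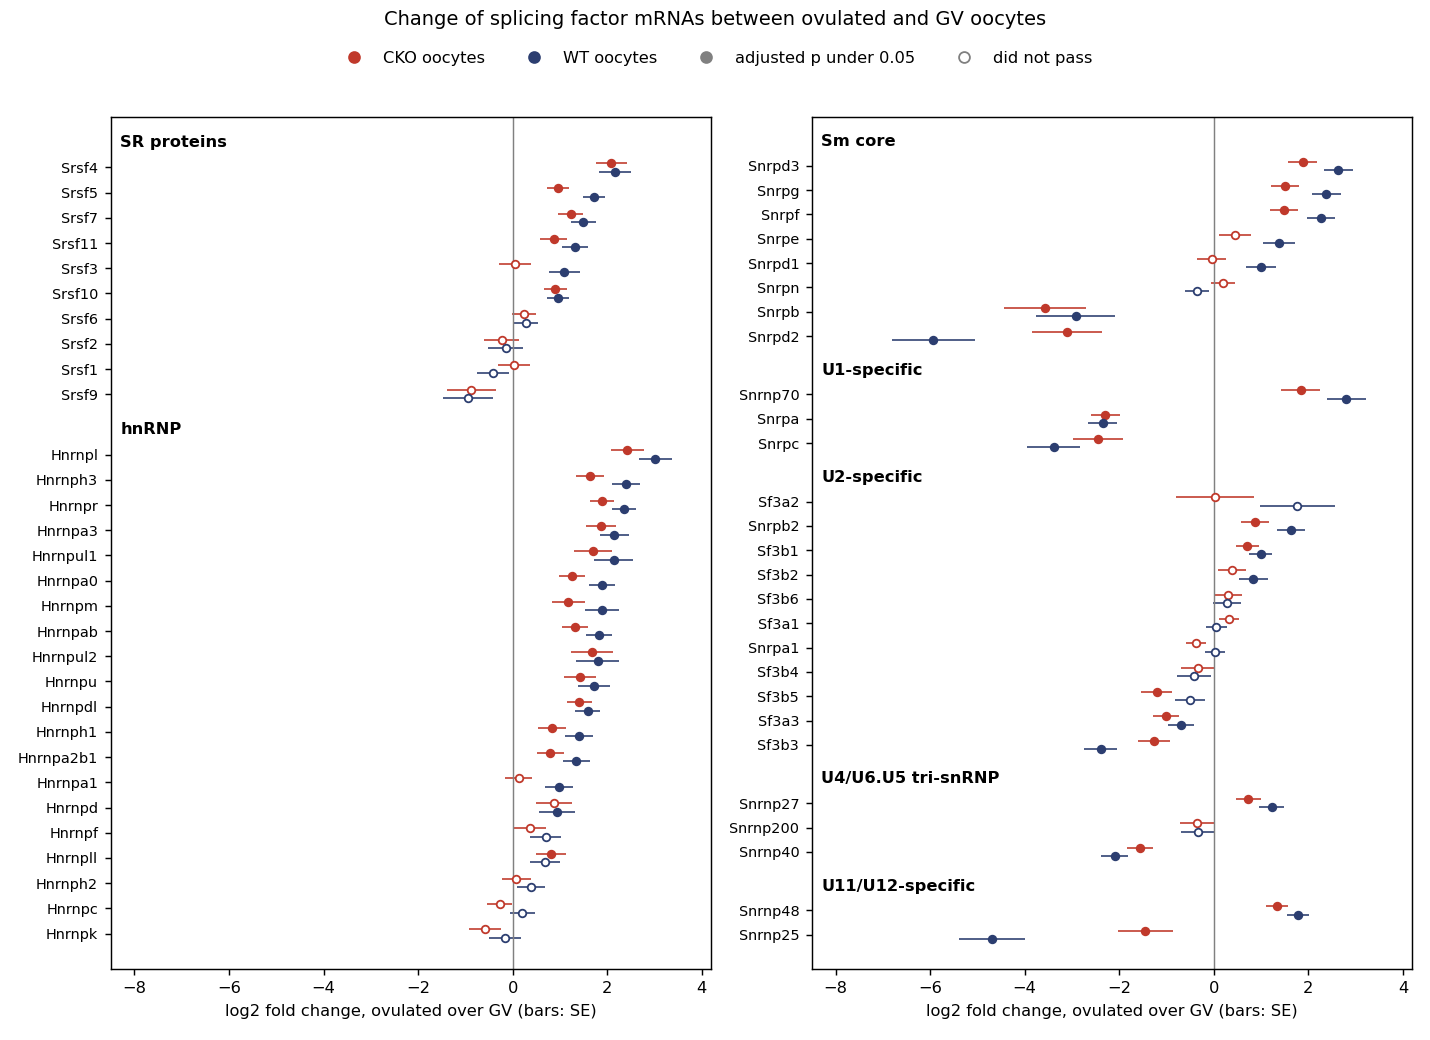
Log2 fold change of the 57 tested members in ovulated over GV oocytes (x axis, bars are SE), in CKO (red) and WT (blue) oocytes, by role. Filled points passed an adjusted p of 0.05. The hnRNPs that passed all lie right of 0, while the Sm core, U1, tri-snRNP and U11/U12 groups each hold members on both sides.

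Of the hnRNPs, Hnrnpr, which is related to Syncrip, had 43.7, 49.3 and 37.7 CPM in ovulated WT oocytes, against 7.24, 10.2, 6.55 and 10.1 CPM in GV WT oocytes (log2 fold change 2.35, SE 0.26, adjusted p = 2.28e-06). Every ovulated WT library lay above every GV WT library. Hnrnph3, a member of the group that binds runs of G, had 34.7, 49.2 and 46.9 CPM in ovulated WT oocytes, against 8.26, 8.31, 6.81 and 9.898 CPM in GV WT oocytes (log2 fold change 2.39, SE 0.30, adjusted p = 6.93e-06). For Hnrnpa3, an A/B type hnRNP, the values were 153, 149.7 and 86.5 CPM in ovulated WT oocytes, against 19.4, 33.9, 39.9 and 23.9 CPM in GV WT oocytes (log2 fold change 2.15, SE 0.31, adjusted p = 2.47e-05). Its groups did not overlap either, although its counts were fractional in all 14 libraries, and whether its reads were divided with other genes was not tested. Hnrnpu, which encodes a nuclear scaffold protein, rose by 1.72 on the log2 scale (SE 0.34, adjusted p = 3.70e-04) to 202, 266 and 164 CPM in ovulated WT oocytes, against 36.6, 88.8, 66.8 and 63.3 CPM in GV WT oocytes. Hnrnpa2b1, whose protein binds RNA and is also known as a reader of modified RNA, had 102, 169 and 126 CPM in ovulated WT oocytes, against 35.4, 65.6, 37.9 and 69.3 CPM in GV WT oocytes (log2 fold change 1.35, SE 0.29, adjusted p = 7.27e-04). Hnrnpa1, a splicing repressor, had 244, 120.0 and 231 CPM in ovulated WT oocytes, against 70.5, 128, 82.5 and 121 CPM in GV WT oocytes (log2 fold change 0.98, SE 0.29, adjusted p = 0.007496), and its groups overlapped. The largest fold change among the hnRNPs was that of Hnrnpl, a binder of CA repeats, from a low level: 8.04, 7.88 and 5.58 CPM in ovulated WT oocytes, against 0.724, 0.809, 1.32 and 0.653 CPM in GV WT oocytes (log2 fold change 3.02, SE 0.36, adjusted p = 4.16e-06).

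The 2 hnRNP mRNAs with the highest FPKM in GV WT oocytes did not pass. Hnrnpk had 618, 253 and 523 CPM in ovulated WT oocytes, against 463, 520.3, 409 and 688 CPM in GV WT oocytes (log2 fold change -0.16, SE 0.34, adjusted p = 0.686), a sign that turned with total counts (0.17). Hnrnpc, whose protein binds runs of U, had 489, 399.9 and 635 CPM in ovulated WT oocytes, against 338, 519, 332 and 581 CPM in GV WT oocytes (log2 fold change 0.20, SE 0.26, adjusted p = 0.517), and its call turned with the scaling: with total counts its log2 fold change was 0.59 (edgeR adjusted p = 0.0199), and it also passed with limma on log2(FPKM + 1) (adjusted p = 0.0321). Their groups overlapped. Hnrnpul1, the hnRNP with the lowest mean FPKM in GV WT oocytes, had 4.29, 5.37 and 5.24 CPM in ovulated WT oocytes, against 0.757, 1.28, 1.51 and 0.955 CPM in GV WT oocytes (log2 fold change 2.13, SE 0.41, adjusted p = 2.80e-04).

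SR proteins carry a domain rich in arginine and serine whose phosphorylation sets where they act. Srsf4 had 54.6, 66.02 and 60.3 CPM in ovulated WT oocytes, against 10.7, 16.7, 11.7 and 14.9 CPM in GV WT oocytes (log2 fold change 2.16, SE 0.33, adjusted p = 4.03e-05). Srsf10, which is known as a repressor when dephosphorylated, had 149.8, 85.01 and 111 CPM in ovulated WT oocytes, against 49.4, 67.8, 56.2 and 63.3 CPM in GV WT oocytes (log2 fold change 0.96, SE 0.24, adjusted p = 0.00201). In both genes all ovulated WT libraries lay above all GV WT libraries. Srsf5, Srsf7 and Srsf11 rose as well, with log2 fold changes (± SE) of 1.73 ± 0.23, 1.49 ± 0.26 and 1.31 ± 0.28. Srsf3, which mouse oocytes need for meiotic maturation, had 127, 129 and 262 CPM in ovulated WT oocytes, against 50.6, 98.1, 63.9 and 111 CPM in GV WT oocytes (log2 fold change 1.09, SE 0.34, adjusted p = 0.00952). Its call rested on 1 library: without ovulated WT replicate 3 it was 0.68 (edgeR adjusted p = 0.0978). Srsf1, the founding member of the family, did not pass and had 11.6, 14.6 and 9.29 CPM in ovulated WT oocytes, against 9.803, 18.8, 18.7 and 16.3 CPM in GV WT oocytes (log2 fold change -0.43, SE 0.34, adjusted p = 0.281). Srsf2, also known as SC35, did not pass either, with 15.7, 47.3 and 25.8 CPM in ovulated WT oocytes, against 22.3, 34.3, 30.8 and 44.2 CPM in GV WT oocytes (log2 fold change -0.15, SE 0.38, adjusted p = 0.736), and its sign turned with total counts (0.31). Neither Srsf6 nor Srsf9 passed.

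**Figure D2:**
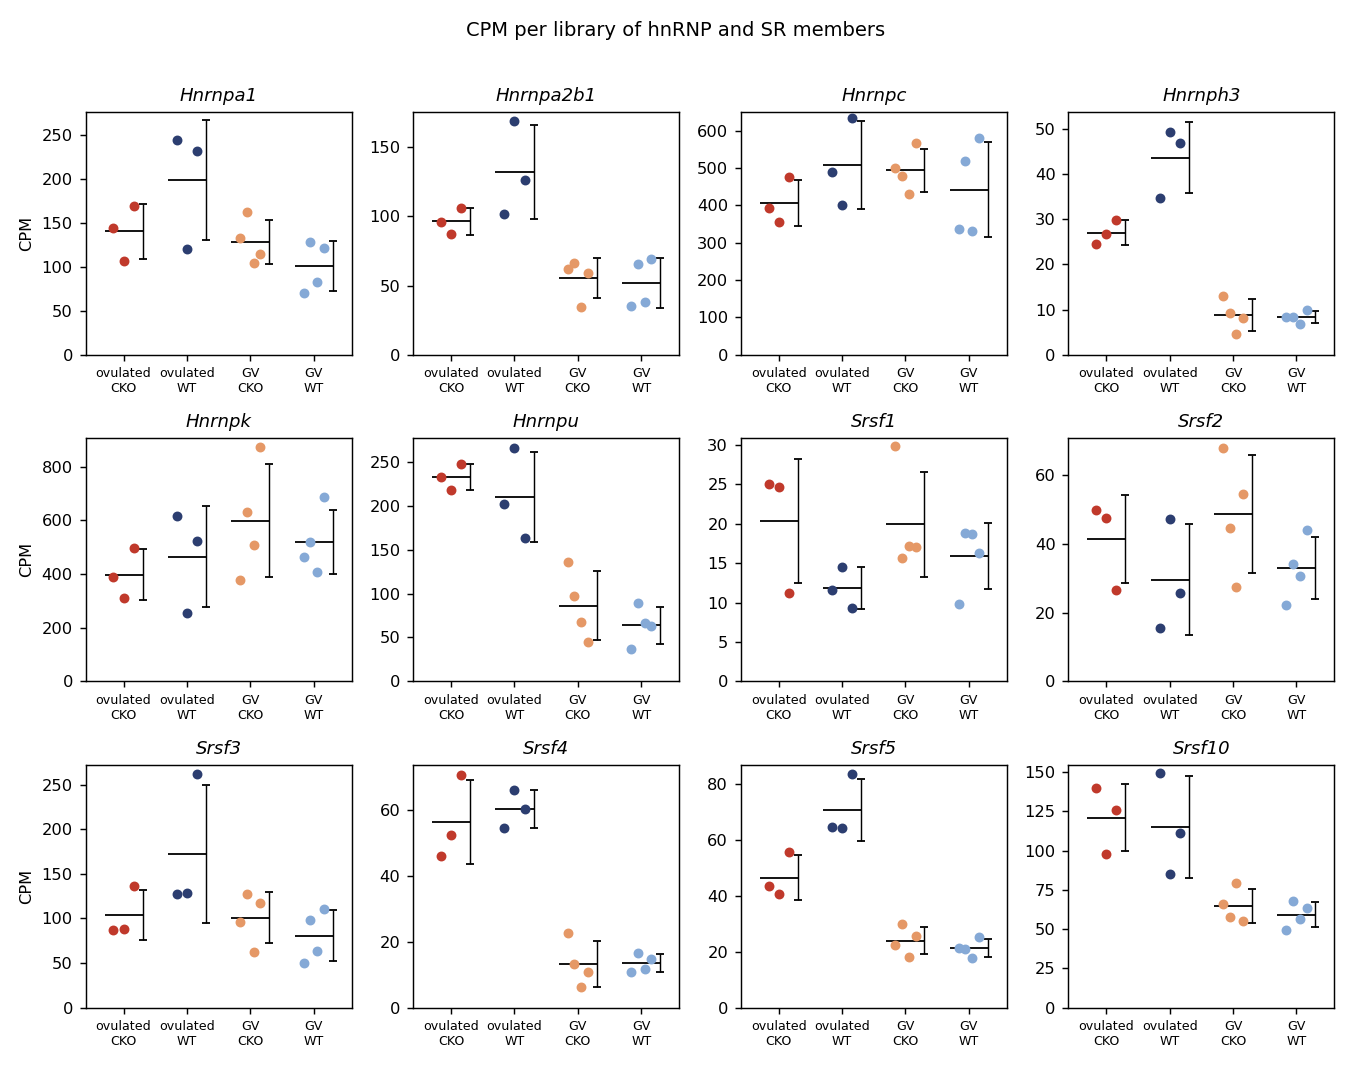
CPM per library (y axis, linear from 0) of 12 hnRNP and SR members in ovulated CKO, ovulated WT, GV CKO and GV WT oocytes. Points are libraries, lines are group means and bars are SD. Hnrnph3, Hnrnpu, Srsf4, Srsf5 and Srsf10 stand higher in both ovulated groups, while Hnrnpc, Hnrnpk, Srsf1 and Srsf2 overlap between stages.

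The Sm ring is built from SmB or SmN, SmD1, SmD2, SmD3, SmE, SmF and SmG, and the mRNAs of its subunits did not move together. Snrpd3, Snrpg and Snrpf rose most. Snrpd3, which encodes SmD3, had 133, 169 and 75.3 CPM in ovulated WT oocytes, against 16.1, 21.8, 17.1 and 26.03 CPM in GV WT oocytes (log2 fold change 2.64, SE 0.31, adjusted p = 4.00e-06). Snrpg had 217, 425 and 311 CPM in ovulated WT oocytes, against 44.9, 81.5, 48.3 and 69.3 CPM in GV WT oocytes (log2 fold change 2.38, SE 0.30, adjusted p = 7.84e-06). Snrpf had 162, 317 and 208 CPM in ovulated WT oocytes, against 35.7, 65.2, 37.4 and 52.6 CPM in GV WT oocytes (log2 fold change 2.26, SE 0.30, adjusted p = 1.03e-05), with counts that were fractional in all 14 libraries. In these 3 genes the groups did not overlap. Snrpe and Snrpd1, which encode SmE and SmD1, rose by 1.39 ± 0.34 and 1.00 ± 0.31 on the log2 scale (± SE).

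Snrpd2, which encodes SmD2, the direct partner of SmD1 during ring assembly, went the other way. It had 0.531, 1.66 and 1.99 CPM in ovulated WT oocytes, against 62.6, 112, 73.9 and 94.7 CPM in GV WT oocytes (log2 fold change -5.93, SE 0.87, adjusted p = 2.62e-05). This was a fall of 60.98-fold, and on the length-corrected scale Snrpd2 stood at 5.53 ± 2.92 FPKM in ovulated WT oocytes (SD, n = 3), against 284 ± 44.8 FPKM in GV WT oocytes (SD, n = 4). Snrpd1, by contrast, had 827 ± 373 FPKM in ovulated WT and 319.8 ± 63.5 FPKM in GV WT oocytes. The gene of SmB, Snrpb, fell to 0.3896, 0.379 and 3.11 CPM in ovulated WT oocytes, against 14.5, 5.71, 11.3 and 7.54 CPM in GV WT oocytes (log2 fold change -2.92, SE 0.83, adjusted p = 0.00592). Its fall was 7.57-fold and became 25.1-fold without ovulated WT replicate 3. Snrpn, which encodes SmN, a close copy of SmB known mainly from neurons and expressed from the paternal allele, had 20.1, 14.1 and 12.9 CPM in ovulated WT oocytes, against 25.5, 17.1, 19.9 and 17.8 CPM in GV WT oocytes (log2 fold change -0.35, SE 0.26, adjusted p = 0.238) and did not pass. Snrpn shares its locus with Snurf and had fractional counts in all 14 libraries, so its level is uncertain.

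The U1 snRNP has 3 proteins of its own. Snrnp70 encodes U1-70K, which contacts SR proteins, and had 44.8, 88.5 and 80.5 CPM in ovulated WT oocytes, against 8.65, 13.7, 5.69 and 12.9 CPM in GV WT oocytes (log2 fold change 2.80, SE 0.42, adjusted p = 2.96e-05). Snrpa encodes the A protein of U1 and had 5.49, 7.03 and 14.8 CPM in ovulated WT oocytes, against 51.8, 42.9, 40.6 and 50.3 CPM in GV WT oocytes (log2 fold change -2.35, SE 0.30, adjusted p = 8.89e-06). Snrpc encodes the C protein, which helps U1 to bind the 5′ splice site, and had 1.38, 5.34 and 2.298 CPM in ovulated WT oocytes, against 38.03, 29.1, 31.1 and 28.3 CPM in GV WT oocytes (log2 fold change -3.39, SE 0.56, adjusted p = 8.04e-05). In each of the 3 genes the groups did not overlap, with Snrnp70 higher and Snrpa and Snrpc lower in ovulated WT oocytes. The fall of Snrpc was 10.5-fold and became 17.7-fold without ovulated WT replicate 2. The A protein has a close relative in the U2 snRNP, the U2B′′ protein encoded by Snrpb2. Snrpb2 had 395, 549.7 and 571 CPM in ovulated WT oocytes, against 117, 221, 127 and 189 CPM in GV WT oocytes (log2 fold change 1.63, SE 0.30, adjusted p = 1.86e-04), so the 2 related genes changed in opposite directions.

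**Figure D3:**
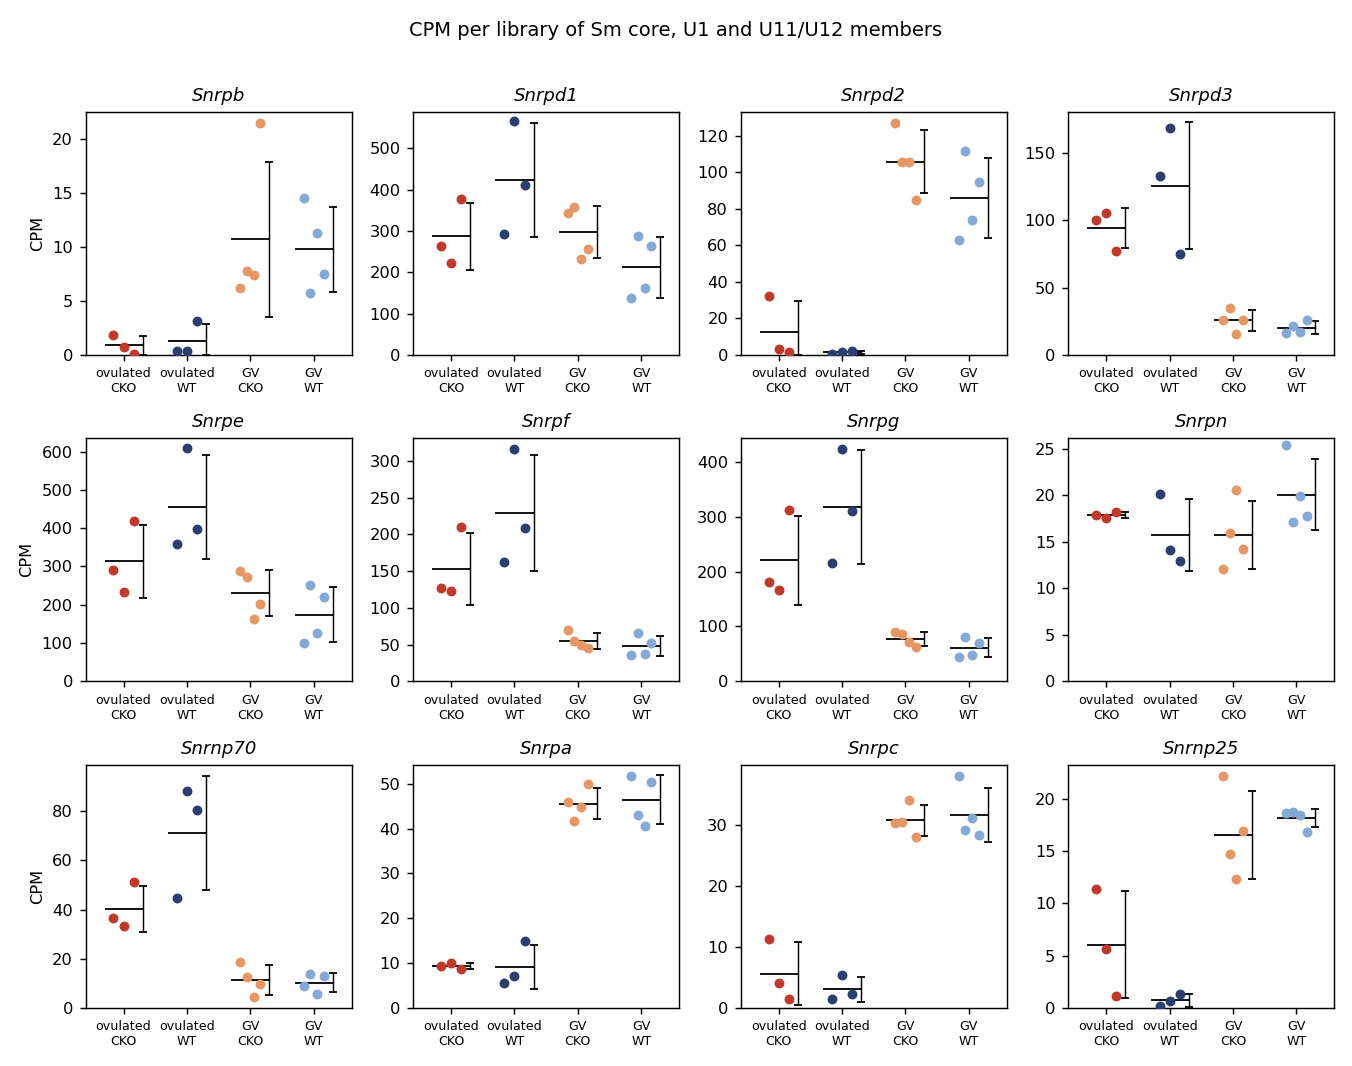
CPM per library (y axis, linear from 0) of the 8 Sm core members, the 3 U1 members and Snrnp25 in ovulated CKO, ovulated WT, GV CKO and GV WT oocytes. Points are libraries, lines are group means and bars are SD, with lower bars ending at 0. Snrpd3, Snrpf, Snrpg and Snrnp70 stand higher in ovulated oocytes, and Snrpb, Snrpd2, Snrpa, Snrpc and Snrnp25 stand lower.

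In the U2 snRNP the subunits of SF3a and SF3b, which hold U2 at the branch point, were divided as well. Sf3b1, the large subunit that clamps the branch point helix, had 699, 588 and 669.8 CPM in ovulated WT oocytes, against 251, 350.5, 294 and 417 CPM in GV WT oocytes (log2 fold change 0.99, SE 0.25, adjusted p = 0.00216). Sf3b2 rose by 0.84 ± 0.30 on the log2 scale (± SE). Sf3b3, the scaffold that sits beside SF3B1, had 10.6, 17.01 and 15.8 CPM in ovulated WT oocytes, against 62.6, 87.2, 68.1 and 86.4 CPM in GV WT oocytes (log2 fold change -2.39, SE 0.36, adjusted p = 2.90e-05). Its libraries did not overlap between the stages. Sf3a3 fell by 0.69 on the log2 scale (SE 0.27, edgeR adjusted p = 0.0358), a call that was lost with total counts (-0.25, edgeR adjusted p = 0.419), with DESeq2 size factors (edgeR adjusted p = 0.06202), with no filter (0.0591), with the 2 groups alone (0.0634), with DESeq2 (adjusted p = 0.0528), with limma on log2(FPKM + 1) (adjusted p = 0.221) and when any of GV WT replicates 2 and 4 and ovulated WT replicates 1 and 3 was left out. Sf3a1 did not pass, with 72.3, 83.8 and 72.1 CPM in ovulated WT oocytes, against 68.8, 77.4, 71.8 and 75.4 CPM in GV WT oocytes (log2 fold change 0.05, SE 0.22, adjusted p = 0.847). Sf3b5 did not pass, with a log2 fold change of -0.51 (SE 0.32), and passed without ovulated WT replicate 2 (-1.14, edgeR adjusted p = 0.00235). Sf3a2, at 0.5098 FPKM over both stages, did not pass, with a log2 fold change of 1.77 (SE 0.80), and had 0.319, 2.54 and 0.845 CPM in ovulated WT oocytes. It passed with DESeq2 (adjusted p = 0.0373), with total counts (2.13, edgeR adjusted p = 0.0466) and without ovulated WT replicate 1 (2.25, edgeR adjusted p = 0.0245).

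Of the tri-snRNP members, Snrnp27 rose by 1.22 on the log2 scale (SE 0.27) and Snrnp40, a WD-repeat protein of U5, had 48.5, 34.1 and 40.8 CPM in ovulated WT oocytes, against 179.6, 198, 115 and 212 CPM in GV WT oocytes (log2 fold change -2.10, SE 0.28, adjusted p = 1.08e-05). Snrnp200, the helicase that unwinds U4 from U6, did not pass, with 17.6, 29.1 and 19.9 CPM in ovulated WT oocytes, against 22.5, 34.3, 37.6 and 16.9 CPM in GV WT oocytes (log2 fold change -0.33, SE 0.36, adjusted p = 0.435), and its value was 0.0128 with total counts. In the minor spliceosome, Snrnp48 had 50.97, 56.6 and 49.8 CPM in ovulated WT oocytes, against 13.1, 18.9, 13.8 and 15.5 CPM in GV WT oocytes (log2 fold change 1.77, SE 0.24, adjusted p = 1.18e-05). Snrnp25, a protein of the same U11/U12 particle, had 0.142, 0.613 and 1.35 CPM in ovulated WT oocytes, against 18.7, 18.7, 18.4 and 16.9 CPM in GV WT oocytes (log2 fold change -4.68, SE 0.70, adjusted p = 3.07e-05). The fall of Snrnp25 was 25.7-fold and became 45.5-fold without ovulated WT replicate 3. Each of these snRNP groups held members that rose and members that fell.

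The ends of these mRNAs were read from the annotation, because stored oocyte mRNAs are known to be held or activated through the cytoplasmic polyadenylation element, a U-rich motif near the poly(A) signal in the 3′ untranslated region. TTTTAT or TTTTAAT was searched on the sense strand of the last 100 bases of 1 annotated transcript per gene (GENCODE M21, build GRCm38, the same assembly as mm10). It was present in 7 of 32 members that rose (21.9%) and in 2 of 8 members that fell (25%). Among all genes it was present in 29.2% of those that rose, 11.2% of those that fell and 19.98% of all 11860 genes whose annotated 3′ untranslated region had at least 100 bases. The median 3′ untranslated region was 863 bases in members that rose and 270.0 bases in members that fell, beside 1472 and 676 bases in all genes that rose or fell. Median GC content of the transcripts was 44.8% in members that rose and 53.2% in members that fell, beside 47.3% and 51.5% in all genes that rose or fell. These features were chosen with the values known and were given no test, and the annotated end may not be the end used in oocytes. For some members the transcript used here also differs in length from the length implied by the authors' counts and FPKM. Snrpd3 had 3036 bases here, against an implied 360 in GV and 380 in ovulated oocytes. Hnrnpr had 21452 bases, against 2474 and 2528, and Hnrnpa3 had 1654 bases, against 4889 and 4979. Snrpg had 1055 bases, against 156 and 174, and Snrpe had 503 bases, against 249 and 269.

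The 30-base windows below, 5′ to 3′ on the sense strand, show the element and the poly(A) signal (AATAAA or ATTAAA, searched in the last 40 bases), both in capitals. They are shown to set members that rose beside snRNP members that fell. The risen members shown all hold the element, which only 7 of 32 members that rose (21.9%) hold, beside 2 of 8 members that fell (25%). Snrpd3 and Hnrnpa2b1, which rose, hold both motifs within the window, and Snrnp70, which rose, holds the element.
Snrpd3: TTTTATtgtattAATAAAtggtgcatgaaa
Hnrnpa2b1: aagTTTTATaaAATAAAtacttttgtatcc
Snrnp70: gtagatttttttTTTTAATccggtcccttg
The 3 snRNP members below fell, and the element was not found in their last 100 bases, so the window shows the poly(A) signal alone.
Snrpa: cctggcgctgttagattgtgATTAAAgtga
Snrpc: cttatattgtgaaatgtgaaAATAAAgtca
Snrnp25: gttgtgggcctggcttatagAATAAAtgtg
Snrnp40 and Sf3a3 also fell and do hold the element, and only the element is marked in their windows. The letters ATTAAA in the Sf3a3 window lie outside the last 40 bases and are not marked. That window lies 81 to 51 bases from the end.
Snrnp40: ctgTTTTATttttaaattgaataactggct
Sf3a3: gTTTTATctttgTTTTATattaaaaagatc
The windows lie in the last exon, in the 3′ untranslated region, at chr10:75537348-75537377 (plus strand) for Snrpd3, chr6:51461124-51461153 (minus strand) for Hnrnpa2b1, chr7:45376491-45376520 (minus strand) for Snrnp70, chr7:27187028-27187057 (minus strand) for Snrpa, chr17:27851921-27851950 (plus strand) for Snrpc, chr11:32208938-32208967 (plus strand) for Snrnp25, chr4:130389927-130389956 (plus strand) for Snrnp40 and chr4:124732380-124732409 (plus strand) for Sf3a3. The window of Snrpd3 lies beyond the RefSeq end of the gene, at position 75535440 of the same chromosome. That of Hnrnpa2b1 is the end of the transcript used and lies inside the RefSeq gene, which reaches position 51460434 on its chromosome. A match is a description of the letters and not a functional site.

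The same comparison was read for 172 other genes of splicing in 9 lists, of which 168 were tested. Values in brackets are log2 fold changes ± SE. Together 72 rose (42.9%) and 47 fell (27.98%) in ovulated WT oocytes, beside 29.7% and 34% of all genes tested. The median log2 fold change was 0.41 for these genes and -0.08 for all genes. Regulators that bind pre-mRNA outside the snRNPs were mostly higher: 25 of 34 rose and 3 fell, among them Khsrp (2.51 ± 0.47), a KH-domain protein, and Sfpq (2.49 ± 0.45), whose usual partner Nono fell (-2.67 ± 0.41). Without ovulated WT replicate 2 the rise of Sfpq was 3.69-fold, against 5.62-fold with all libraries. The list of kinases and phosphatases of SR proteins was next, with 7 of 12 genes risen and 2 fallen. The risen genes include Tnpo3, which is neither a kinase nor a phosphatase. Clk2 (2.21 ± 0.40), a kinase of SR proteins, and Ppp1cc (2.398 ± 0.37), a phosphatase subunit, were the named members. Of 25 factors associated with U1, U2 or the branch point 12 rose and 5 fell. Tial1 (2.58 ± 0.52) and Luc7l3 (2.41 ± 0.32) rose, and the helicase Ddx39b (-6.02 ± 0.64) and Puf60 (-3.75 ± 0.52) fell. In the exon junction and export list 9 of 18 rose and 5 fell, with Pnn (3.15 ± 0.35) and Srrm2 (2.87 ± 0.31) among the genes that rose and Nxf1 (-4.19 ± 0.41), the general mRNA export receptor, and Thoc5 (-2.70 ± 0.35) among those that fell.

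The other 5 lists hold genes that build and recycle snRNPs, the catalytic steps and the minor spliceosome (log2 fold change ± SE in brackets). In 4 of these 5 lists more genes fell than rose, as over all genes tested, of which 29.7% rose and 34% fell. Of 19 genes of the SMN complex and snRNP assembly 2 rose and 9 fell: Smn1 (1.66 ± 0.29), which encodes the SMN protein, and Prmt5 (0.92 ± 0.27), which methylates Sm proteins, rose, whereas Gemin7 (-4.36 ± 0.46), a subunit of the SMN complex, and Snupn (-3.75 ± 0.39), the import adaptor of snRNPs, fell. Of 16 U5 and tri-snRNP genes 3 rose and 7 fell, with Txnl4b (-4.02 ± 0.38) and Txnl4a (-3.65 ± 0.47) lower and Ppih (1.62 ± 0.24) and Prpf6 (1.44 ± 0.35) higher. Of 10 LSm genes 2 rose and 5 fell. Lsm10 fell to 5.24, 17.2 and 8.99 CPM in ovulated WT oocytes, against 205, 232, 212 and 214 CPM in GV WT oocytes (-4.36 ± 0.59 on the log2 scale, 20.5-fold, and 31.2-fold without ovulated WT replicate 2). Lsm11, whose protein pairs with LSM10 in the U7 snRNP that trims histone mRNAs, rose by 1.47 ± 0.33. Lsm6 fell (-2.54 ± 0.36) and Lsm1, of the cytoplasmic decay ring, rose (1.02 ± 0.28). Among 26 genes of the PRP19 complex and the catalytic steps 10 rose and 7 fell, including Syf2 (1.86 ± 0.32) and Bcas2 (1.79 ± 0.24) higher and Ppie (-7.00 ± 0.45) and Bud31 (-4.84 ± 0.56) lower. Of 8 other minor spliceosome genes 2 rose and 4 fell: Zrsr2 (3.22 ± 0.40) and Pdcd7 (0.83 ± 0.28) rose, and Zmat5 (-6.02 ± 0.64) and Scnm1 (-2.41 ± 0.38) fell. Pdcd7 lost its call without GV WT replicate 1 (edgeR adjusted p = 0.05303) and without ovulated WT replicate 2 (edgeR adjusted p = 0.161).

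The same stages were compared in CKO oocytes. Of 57 members 27 rose and 9 fell in ovulated CKO oocytes relative to GV CKO oocytes, beside 25.8% and 29.9% of all genes tested, and the median log2 fold change was 0.44 for the members and -0.14 for all genes. With total counts 34 members rose and 5 fell, beside 35.6% and 17.2% of all genes, and the median of all genes lay higher by 0.59 on the log2 scale. By role 14 of 20 hnRNPs and 5 of 10 SR proteins rose and none fell, whereas of 27 snRNP proteins 8 rose and 9 fell. In both genotypes 26 members rose and 8 fell, where 49.7% of all genes passed in the same direction in both. The 2 comparisons share no library, but both come from 1 fit of 14 libraries. Any difference in processing between the stages enters both. A further 6 members passed in WT and not in CKO oocytes, namely Hnrnpa1, Hnrnpd, Sf3b2, Snrpd1, Snrpe and Srsf3, and Hnrnpll and Sf3b5 passed in CKO and not in WT oocytes. None of these 8 passed the test of the difference between genotypes given at the end.

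Srsf4 had 46.1, 52.5 and 70.5 CPM in ovulated CKO oocytes, against 22.8, 13.1, 6.43 and 10.7 CPM in GV CKO oocytes (log2 fold change 2.09, SE 0.33, adjusted p = 8.86e-05). The log2 fold changes of Hnrnpr, Snrpd3, Hnrnpa3 and Snrnp70 (± SE) were 1.89 ± 0.26, 1.88 ± 0.30, 1.87 ± 0.31 and 1.84 ± 0.41. Those of Hnrnph3 and Snrpg were 1.63 ± 0.30 and 1.51 ± 0.30, and all of these members passed. Hnrnpul2 rose 3.19-fold, and 5.08-fold without GV CKO replicate 1. Among the members that fell, Snrpa had 9.36, 9.89 and 8.65 CPM in ovulated CKO oocytes, against 45.9, 41.6, 44.9 and 49.9 CPM in GV CKO oocytes (log2 fold change -2.29, SE 0.30, adjusted p = 2.12e-05), and Snrnp40 had 56.03, 56.9 and 42.2 CPM in ovulated CKO oocytes, against 149.6, 143, 113 and 204 CPM in GV CKO oocytes (log2 fold change -1.56, SE 0.27, adjusted p = 1.83e-04). Snrpd2 had 32.1, 3.37 and 1.58 CPM in ovulated CKO oocytes, against 127, 106, 106 and 84.9 CPM in GV CKO oocytes (log2 fold change -3.10, SE 0.74, adjusted p = 0.00209). Its fall was 8.56-fold and became 41.8-fold without ovulated CKO replicate 1, the library with the highest value of that group. Snrpc fell 5.47-fold, and 10.9-fold without the same library. Snrnp25 had 11.4, 5.64 and 1.14 CPM in ovulated CKO oocytes, against 22.2, 14.7, 12.3 and 16.96 CPM in GV CKO oocytes (log2 fold change -1.45, SE 0.58, adjusted p = 0.0431), which was 2.73-fold and 4.77-fold without ovulated CKO replicate 1. This call was lost with total counts (-0.81, edgeR adjusted p = 0.279), with the 2 groups alone (edgeR adjusted p = 0.0624), with limma on log2(FPKM + 1) (adjusted p = 0.05102) and without ovulated CKO replicate 2 or 3 or GV CKO replicate 1, 2 or 4. Those of Sf3b3, Sf3b5 and Sf3a3 were lost with limma on log2(FPKM + 1) (adjusted p = 0.0798, 0.1197 and 0.192) and with total counts (edgeR adjusted p = 0.195, 0.171 and 0.252).

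Loss of CLPX was examined first in GV oocytes. None of the 57 members passed in GV CKO against GV WT oocytes with edgeR, and neither DESeq2 nor limma-voom called one. Of all genes tested 0.0245% passed. At an unadjusted p under 0.05 stood 2 members, beside 5.74% of all genes. In 47 of 57 members the fold change was above 1, beside 52.9% of all genes, with a median log2 fold change of 0.21 for the members. This median was 0.02 with total counts, which lowered the median of all genes by 0.16 on the log2 scale. The smallest p-values were those of Hnrnpab and Hnrnpa0. Hnrnpab had 19.8, 10.9, 11.1 and 19.8 CPM in GV CKO oocytes, against 7.73, 10.5, 9.25 and 11.003 CPM in GV WT oocytes (log2 fold change 0.67, SE 0.26, edgeR adjusted p = 0.834). Hnrnpa0 had 6.93, 9.21, 7.83 and 7.402 CPM in GV CKO oocytes, against 4.97, 4.73, 7.11 and 5.02 CPM in GV WT oocytes (log2 fold change 0.51, SE 0.23, edgeR adjusted p = 0.834). The groups of both genes overlapped, as did those of all 59 members, beside 1.35% of all genes with CKO above WT and 2.3% with CKO below WT libraries. Next by p, as log2 fold change ± SE, came Srsf2 at 0.56 ± 0.27, Sf3b4 at -0.67 ± 0.34, Snrpd1 at 0.49 ± 0.25 and Snrpa1 at 0.32 ± 0.18, none of which passed.

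In ovulated oocytes, too, none of the 57 members passed in CKO against WT oocytes with edgeR, beside 0.0083% of all genes, and limma-voom called none. DESeq2 called Snrnp25. At an unadjusted p under 0.05 stood 6 members, beside 7.76% of all genes. The groups did not overlap in 1 member that was higher in CKO oocytes and in 5 that were lower, beside 5.51% and 5.12% of all genes.

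**Figure D4:**
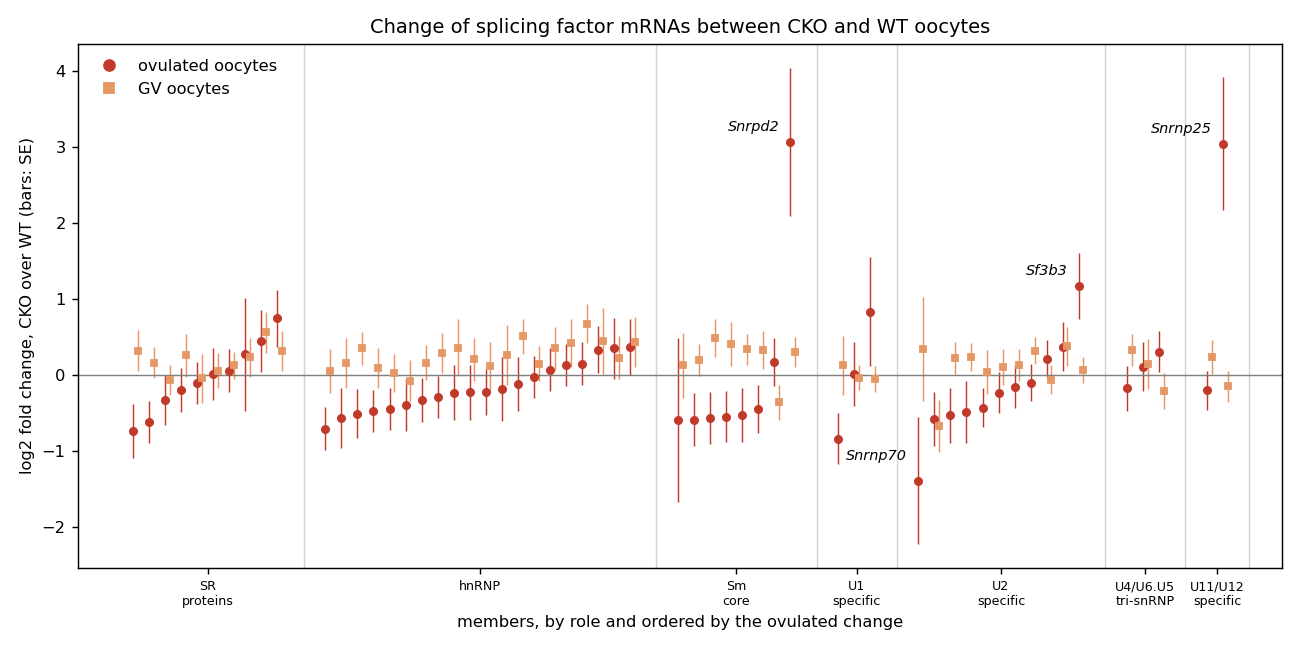
Log2 fold change of the 57 tested members in CKO over WT oocytes (y axis, bars are SE), at the ovulated (red) and GV (orange) stages, by role. No member passed an adjusted p of 0.05 at either stage, and Snrpd2, Snrnp25 and Sf3b3 stand furthest above 0 in ovulated oocytes.

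Snrnp25 had 11.4, 5.64 and 1.14 CPM in ovulated CKO oocytes, against 0.142, 0.613 and 1.35 CPM in ovulated WT oocytes (log2 fold change 3.05, SE 0.88, edgeR adjusted p = 0.524). Ovulated CKO replicates 1 and 2 lay above all WT libraries, and replicate 3 lay within the WT range. Snrpd2 had 32.1, 3.37 and 1.58 CPM in ovulated CKO oocytes, against 0.531, 1.66 and 1.99 CPM in ovulated WT oocytes (log2 fold change 3.07, SE 0.97, edgeR adjusted p = 0.524). Here, too, replicates 1 and 2 lay above the WT libraries and replicate 3 within their range. Sf3b3 had 37.2, 49.4 and 13.6 CPM in ovulated CKO oocytes, against 10.6, 17.01 and 15.8 CPM in ovulated WT oocytes (log2 fold change 1.17, SE 0.43, edgeR adjusted p = 0.577), again with replicates 1 and 2 above the WT libraries and replicate 3 within their range. DESeq2 gave Snrnp25 a log2 fold change of 3.07 with an adjusted p = 0.0202, where 0.888% of all genes were called higher. Without ovulated CKO replicate 3 edgeR called Snrnp25 as well (3.49, adjusted p = 0.04496), where 1.56% of all genes were called higher. The other 5 members that fell between the WT stages had log2 fold changes (± SE) in CKO over WT of 0.84 ± 0.71 for Snrpc, 0.31 ± 0.27 for Snrnp40, 0.01 ± 0.42 for Snrpa, -0.23 ± 0.27 for Sf3a3 and -0.59 ± 1.07 for Snrpb. This comparison shares the ovulated WT libraries with the comparison of WT stages. Of the oocyte markers, Zp3 had 136 to 451 CPM in ovulated CKO and 104 to 118 CPM in ovulated WT libraries, a gene named after its values were seen. Gdf9 had 4819 to 6559.7 CPM in ovulated CKO and 4319.8 to 9742 CPM in ovulated WT libraries, and the sums of all 10 oocyte markers overlapped as well, as given above. The part of these markers in the genotype differences was not tested.

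On the other side, Hnrnph3 had 24.6, 26.7 and 29.9 CPM in ovulated CKO oocytes, against 34.7, 49.2 and 46.9 CPM in ovulated WT oocytes (log2 fold change -0.70, SE 0.28, edgeR adjusted p = 0.6103). Srsf5 had 43.5, 40.5 and 55.7 CPM in ovulated CKO oocytes, against 64.5, 64.2 and 83.7 CPM in ovulated WT oocytes (log2 fold change -0.61, SE 0.28, edgeR adjusted p = 0.641). In both all 3 CKO libraries lay below all 3 WT libraries. Snrnp70 had 36.4, 33.3 and 51.02 CPM in ovulated CKO oocytes, against 44.8, 88.5 and 80.5 CPM in ovulated WT oocytes (log2 fold change -0.83, SE 0.34, edgeR adjusted p = 0.603), and its groups overlapped. Over all members the median log2 fold change was -0.19, beside -4.84e-04 for all genes.

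Whether the CKO effect differs between the stages was tested as an interaction over all 14 libraries. With edgeR none of 57 members passed, beside 0.0076% of all genes, limma-voom called none, and 6 had an unadjusted p under 0.05, beside 9.16% of all genes. These were Snrnp25 with a log2 difference (± SE) of 3.24 ± 0.84, Snrpd2 with 2.83 ± 0.97, Sf3b3 with 1.14 ± 0.46, Srsf5 with -0.77 ± 0.33, Snrpd1 with -1.05 ± 0.45 and Srsf3 with -1.05 ± 0.48. Their adjusted p-values with edgeR were between 0.2799 and 0.5302. The last 3 of them have a lower stage log2 fold change in CKO than in WT oocytes. It was 0.95 in CKO and 1.73 in WT oocytes for Srsf5, -0.05 and 1.00 for Snrpd1, and 0.04 and 1.09 for Srsf3. Srsf3, for example, had 87.2, 88.2 and 136 CPM in ovulated CKO, 127, 129 and 262 CPM in ovulated WT, 96.6, 127, 62.9 and 117 CPM in GV CKO and 50.6, 98.1, 63.9 and 111 CPM in GV WT oocytes. DESeq2 called Snrnp25 (3.20, adjusted p = 0.0248), where 0.456% of all genes were called higher. Without ovulated CKO replicate 3 edgeR called Snrnp25 (3.71, adjusted p = 0.00426), Snrpd2 (3.32, adjusted p = 0.0228) and Sf3b3 (1.502, adjusted p = 0.0238), where 3.62% of all genes were called higher. In 46 of 57 members the stage change was smaller in size in CKO than in WT oocytes, beside 63.9% of all genes tested. This count was taken with TMM scaling and was given no test. The median log2 difference of the members was -0.41 with TMM scaling and -0.13 with total counts. For all genes tested it was 0.004 and 0.25.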

How the data were processed

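RNA-seq values of 14 mouse oocyte libraries came from 1 read count table and 1 FPKM table per stage. The authors deposited expected counts, estimated per gene with 14.45% to 16.32% fractional values per library, and FPKM, which the authors scaled to gene length and library size. The build was mm10 per the submitters' processing notes, and the aligner, counter and annotation are not given in the sources used here. The 2 tables give another symbol to 241 of the 16417 shared gene IDs, so genes were joined by ID. No column was a copy of another: replicates of a group differed far more than counting allows (chi-square over its degrees of freedom 40.6 to 325 over 18 pairs).

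Counts were rounded and tested with edgeR 4.0.16 in R 4.3.3 (TMM scaling, filterByExpr at 10 counts, and the quasi-likelihood F-test with robust settings), with p-values adjusted by Benjamini-Hochberg over all genes tested and a threshold of 0.05. Genotypes were compared on the libraries of 1 stage, and stages and the interaction in a fit of 14 libraries. Printed CPM use the scaling of all 14 libraries. The standard error is the log2 fold change divided by the square root of F. Alternatives were DESeq2 1.42.0, limma 3.58.1 (voom, and log2(FPKM + 1) or log2(FPKM + 0.1)), other scalings, no filter, a replicate block, other sets of libraries and leaving out each library. TMM factors were between 0.654 and 1.37.

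The members and lists were chosen with earlier results of these data known. Genes named were 15 members fixed by name, the highest and lowest by FPKM in each symbol family, up to 8 members per direction in each stage comparison and 2 genes per direction in each list by fold change among those that passed with at least 10 CPM, and the 6 members with the smallest p in each other comparison. Other genes were named after their values were seen. Genes of like pattern, which had been planned, are not given, since the libraries form 2 clusters by stage.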

Additional observations from a re-analysis of the deposited data

Results flagged for a closer look

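Single libraries stood apart from their group in 4 of 86 groups of values tested, where chance gives about 1 in 20. Hnrnpa0 had 7.11 CPM in GV WT replicate 3, against 4.73 to 5.02 CPM in the other GV WT libraries. Snrnp25 had 16.9 CPM in GV WT replicate 4, against 18.4 to 18.7 CPM in the others of the group. Snrpb had 21.5 CPM in GV CKO replicate 4, against 6.21 to 7.82 CPM in the other GV CKO libraries. Srsf1 had 29.8 CPM in GV CKO replicate 1, against 15.6 to 17.2 CPM there. Groups of 3 ovulated libraries were not tested.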

How the results depend on the processing

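Each count of members called was recomputed under every alternative run. Of these recomputed counts 82 stayed within 1.5 times the count reported and 4 did not. For ovulated CKO against WT oocytes, DESeq2 and edgeR without ovulated CKO replicate 3 each called 1 member in place of 0. For the difference between stages, DESeq2 called 1 and edgeR without ovulated CKO replicate 3 called 3 in place of 0. Leaving out 1 library gave 38 to 40 members between WT stages, 28 to 37 between CKO stages, 0 to 0 in GV oocytes, 0 to 1 in ovulated oocytes and 0 to 3 for the difference. Of the other recomputed values (fold changes of named genes, medians, and counts over all genes) 1762 kept their direction and call, 35 lost and 13 gained the call, 30 counts or medians moved and 14 changed sign. The sign changes were all in members that did not pass between WT stages. With total counts Srsf2 became 0.31, Hnrnpk 0.17 and Snrnp200 0.0128. With log2(FPKM + 1) and log2(FPKM + 0.1) Srsf2 became 0.0736 and 0.0672, Hnrnpk 0.0999 and 0.10, and Snrnp200 0.03498 and 0.0569. Leaving out 1 library gave -0.71 to 0.19 for Srsf2, -0.42 to 0.0912 for Hnrnpk and -0.0671 to 0.15 for Sf3a1. The cause was not tested.

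The main tests did not pair the samples by replicate number. The deviations of same-numbered CKO and WT libraries from their group means correlated across genes at -0.26, 0.23, 0.38 and 0.46 in GV and at -0.26, 0.37 and 0.03 in ovulated oocytes. GV CKO replicates 2, 3 and 4 and ovulated CKO replicate 2 correlated best with the WT library of their own number. GV CKO replicate 1 and ovulated CKO replicates 1 and 3 did not. Whether equal numbers mark a pairing or a shared batch was not settled. With the number as a replicate block 32 members rose and 7 fell between WT stages, 25 rose and 8 fell between CKO stages, and 0 passed in the other comparisons. With the block the calls of Sf3a3 (edgeR adjusted p = 0.0509) and Pdcd7 (0.0545) between WT stages and of Snrnp25 (0.0614) between CKO stages were lost. Groups of 3 or 4 libraries limit every test here.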
